A study of Drosophila melanogaster with 2 samples.

Results

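Peaks at divergent promoters are the sites in this Jra ChIP-seq experiment whose summit lay close to the start sites of a pair of neighbouring genes that point away from each other. A peak was counted when its summit was within 500 bp of a minus-strand and of a plus-strand transcription start site (TSS) of different protein-coding genes. The minus-strand start had to be at the lower coordinate and the starts at most 1000 bp apart. On build dm6, 688 of the 3803 nuclear peaks, on arms X, 4, 3L, 3R, 2L and 2R (18.1%, Wilson 95% interval 16.9 to 19.3) met this rule. They are set beside 1409 single-gene promoter peaks, which had a summit within 500 bp of a start site but did not meet the rule, and beside 1706 peaks away from start sites. The experiment profiled whole larvae of Drosophila melanogaster in the third instar, at the wandering stage, with males and females pooled. The larvae were of a transgenic line that carries Jra with GFP at its C terminus, and chromatin was precipitated with an antibody against GFP. Both libraries come from this single line and form 1 group of 2 biological replicates, labelled 1 and 3. The labels do not say whether the replicates came from separate collections of larvae, and what drives the transgene is not given in the sources used here. In whole larvae, weaker binding and binding in fewer cells cannot be told apart. The deposited lists give a signal value for each peak, which is the authors' own, but no read counts, so sequencing depth is unknown.

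Jra is the fly Jun protein, which pairs with the Fos protein kay to form the AP-1 transcription factor and acts downstream of the JNK kinase pathway. Divergent gene pairs are common in the compact fly genome, and the short stretch between their starts can serve as promoter for both genes, many of which are broadly expressed housekeeping genes. Such promoters often hold the DNA replication-related element (DRE), bound by the factor DREF, and related sites bound by the insulator protein BEAF-32, which is known for its place between head-to-head genes.

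Sequences of 2 intervals between divergent starts are printed first, because they held the summit of members among the 5 strongest and show how little room these pairs leave. All sequences are from the RefSeq copy of the Release 6 genome, which is dm6, and run 5′ to 3′ on the plus strand. Capitals mark exact matches to the AP-1 site (TGACTCA or TGAGTCA, each the reverse complement of the other), the DRE (TATCGATA, its own reverse complement) and the BEAF-32 core (CGATA, or TATCG on the other strand). Every DRE also contains the core. The interval of Tcs5 and CHMP2B is chr3L:5139395-5139619, and that of Art3 and mRpS10 is chr3R:15229408-15229665, both from the minus-strand start to the plus-strand start.
Tcs5/CHMP2B: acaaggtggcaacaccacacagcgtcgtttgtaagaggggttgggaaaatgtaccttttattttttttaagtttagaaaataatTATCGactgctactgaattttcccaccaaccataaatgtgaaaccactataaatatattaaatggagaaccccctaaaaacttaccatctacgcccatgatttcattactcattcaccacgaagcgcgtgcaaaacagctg
Art3/mRpS10: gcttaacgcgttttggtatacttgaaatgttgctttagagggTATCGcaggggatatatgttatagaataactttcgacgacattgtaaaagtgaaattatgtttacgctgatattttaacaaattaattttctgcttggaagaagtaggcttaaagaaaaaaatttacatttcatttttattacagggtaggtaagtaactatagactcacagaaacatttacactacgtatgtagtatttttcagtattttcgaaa

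The next 3 sequences are 101 bp windows centred on the summit, shown because they belong to the strongest members that held a DRE on the arms printed here. Their positions are chr3L:12850088-12850188 for CG10948 and Wbp2, chr3L:8299798-8299898 for Arl5 and CG13671, and chr3R:16342077-16342177 for SF2 and pad.
CG10948/Wbp2: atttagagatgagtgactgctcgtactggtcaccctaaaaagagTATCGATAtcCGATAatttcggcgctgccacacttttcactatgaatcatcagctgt
Arl5/CG13671: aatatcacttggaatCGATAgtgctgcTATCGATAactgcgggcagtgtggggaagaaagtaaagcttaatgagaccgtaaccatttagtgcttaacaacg
SF2/pad: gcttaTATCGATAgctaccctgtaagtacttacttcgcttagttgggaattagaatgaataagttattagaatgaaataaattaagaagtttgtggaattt

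The last 3 are windows of the same length from the strongest members with an AP-1 site. Their positions are chr3R:25473211-25473311 for Fur1 and Vps33B, chr2L:12704715-12704815 for CG5776 and spict, and chr3R:5789365-5789465 for Hat1 and Rpn5.
Fur1/Vps33B: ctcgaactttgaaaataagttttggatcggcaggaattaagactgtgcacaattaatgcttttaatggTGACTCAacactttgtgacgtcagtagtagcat
CG5776/spict: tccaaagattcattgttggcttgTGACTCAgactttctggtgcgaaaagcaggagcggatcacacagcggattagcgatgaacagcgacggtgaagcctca
Hat1/Rpn5: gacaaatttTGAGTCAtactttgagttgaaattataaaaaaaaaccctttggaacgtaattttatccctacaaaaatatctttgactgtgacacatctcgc

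The 12 strongest peaks at divergent promoters lay beside genes of varied function and many known only by a CG number. The summit of highest signal lay at 3L 5139512, between Tcs5, a kinase gene of transfer RNA modification, and CHMP2B, a gene of the ESCRT membrane-scission machinery. Its signal was 741 in the pooled list, 472 in replicate 1 and 268 in replicate 3, and it ranked 9 of the 3803 nuclear peaks. It stood 5 bp from the midpoint of a gap of 224 bp, in the first sequence printed. The peak shared by Pex11ab, a gene of peroxisome division, and CG8320 lay 80 bp inside CG8320 and had a signal of 644 (389 in replicate 1 and 257 in replicate 3). CG8372/CG8360 reached 610 (367 in replicate 1 and 252 in replicate 3). All 3 of these peaks were higher in the list of replicate 1, whose scale is its own, so the pair of values is not a measured difference between the replicates.

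A pair of peaks with mitochondrial ribosomal protein genes followed. The peak of mRpS23 and the Arf regulator gene CenG1A had a signal of 604 (336 in replicate 1 and 269 in replicate 3), and its starts were 492 bp apart. Art3, an arginine methyltransferase gene, and mRpS10 shared a peak of 604 (397 in replicate 1 and 212 in replicate 3), 6.5 bp from the midpoint of their gap. Chro, which encodes a chromodomain protein of interbands and the spindle, and the TFIIH gene Ssl1 had a signal of 505 (327 in replicate 1 and 181 in replicate 3), with the summit 97 bp inside Chro. The other 6 of the 12 strongest ranged from 448 to 482. They were CG11309/CG7632 (482), Fbw5/CG9147 (481), CG5611/Mtl (474), Atat/Shc (463), Mnat9/CG1792 (453) and mRpL23/CG9004 (448). Mtl encodes a Rac-family GTPase, Atat a tubulin acetyltransferase and Shc an adaptor of receptor tyrosine kinases. At Atat/Shc the summit fell exactly on the midpoint of a gap of 252 bp, while at CG11309/CG7632 it lay 69 bp inside the minus-strand gene. The 3 members of lowest signal, CG32625/Rtc1 (70.6), Ak6/stil (70.7) and CG9921/Dsp1 (70.7), stood just above the lowest signal on the nuclear list.

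Most divergent pairs had no member peak, but the share of pair genes with a summit was above that of genes outside pairs. The annotation held 2667 divergent pairs with starts at most 1000 bp apart, and 690 of them (25.9%, interval 24.2 to 27.6) had a member peak. Those pairs held 1292 of the 5052 genes that belong to any pair (25.6%). When any summit within 500 bp of a start was counted, 1532 of the 5052 genes of pairs had one (30.3%), against 960 of the 8893 genes outside pairs (10.8%) and 2492 of all 13945 protein-coding genes (17.9%). A single locus weighs on the pair counts: mod(mdg4) is annotated as many separate genes with starts close together, and 3 member peaks there met all 37 of its pairs. Without them 653 of 2630 pairs had a member peak (24.8%), as did 1272 of 5032 genes of pairs (25.3%). A gene of a pair can draw on its neighbour's summit, which raises its share by construction. Genes of pairs with a member peak spanned a median of 2459 bp, genes of the other pairs 2248 bp and genes outside pairs 2080 bp. No test was run between groups of peaks or genes, because these are not replicates of a condition. Intervals on shares cover counting error only.

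A further 461 of the 1977 pairs without a member peak (23.3%) held a summit of the pooled list below the reproducibility cut, with signals of 16.0 to 70.5 and a median of 44.3. The remaining 1516 pairs (56.8% of 2667) had no summit there in either list. The longer lists of the replicates, which include background regions, placed a summit at 1310 pairs in replicate 1 (49.1%) and 1230 pairs in replicate 3 (46.1%). Signals at pairs just below the cut met those of the weakest members, 70.5 against 70.6.

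The share of pairs with a peak varied with the distance between the starts. It was 31.7% for starts 1 to 100 bp apart (136 of 429 pairs), 23.2% for 101 to 200 bp, 38.4% for 201 to 300 bp (208 of 542), 35.5% for 301 to 400 bp and 31.1% for 401 to 500 bp. It was 13.9% for 501 to 600 bp (29 of 208), 3.25% for 601 to 700 bp and 3.42% for 701 to 800 bp. None of the 100 pairs 801 to 900 bp apart, and none of the 93 pairs 901 to 1000 bp apart, had a peak. A summit within 500 bp of both starts has less room as the gap grows, so the decline beyond 500 bp follows in part from the rule. Among pairs up to 500 bp apart 652 of 1995 had a peak (32.7%), against 38 of 672 pairs farther apart (5.65%). The median gap was 263 bp with a peak and 333 bp without. Leaving out the mod(mdg4) pairs changed the share to 21.7% for 101 to 200 bp, 33.2% for 301 to 400 bp and 26.7% for 401 to 500 bp, and left the other classes as they were.

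**Figure D1:**
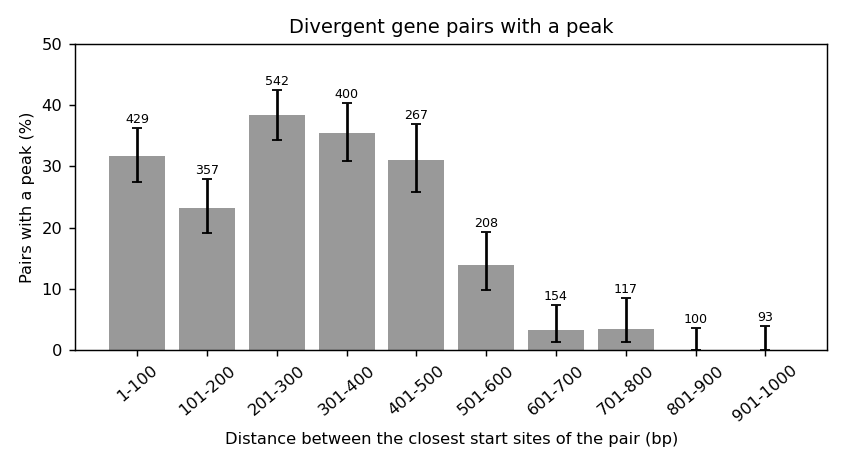
Share of divergent gene pairs with a peak (percent, vertical axis) by the distance between their closest starts (bp, horizontal axis), with Wilson 95% intervals as bars and the number of pairs in each class above. The share peaks at 38.4% for starts 201 to 300 bp apart, dips to 23.2% in the class of 101 to 200 bp and reaches 0 beyond 800 bp, with the mod(mdg4) pairs included.

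The class of 101 to 200 bp holds many pairs of histone genes, which sit in a cluster of near-identical copies. None of 42 pairs of 2 histone genes had a summit in the reproducible, pooled or replicate lists, and whether reads could be placed in such copies was not tested. Without them the share in that class was 83 of 319 pairs (26.0%), and over all gaps 690 of 2625 (26.3%). The 2 histone genes with a member peak were His2Av and His4r, whose partners are not histone genes. His2Av, a variant of H2A, shared with ball a peak of 199 (124 in replicate 1 and 70.2 in replicate 3), and His4r shared with put, a receptor gene, a peak of 90.0 (45.3 in replicate 1 and 40.6 in replicate 3). Across chromosome arms, pairs with a peak made up 31.6% on 3R (27.7% without the mod(mdg4) pairs), 26.3% on 3L, 25.7% on 2L, 22.8% on X and 21.0% on 2R. On the small chromosome 4 it was 1 of 11 pairs.

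The summit usually sat between the starts, in the shared upstream sequence. It lay between them in 560 of the 688 members (81.4%, interval 78.3 to 84.1), inside the minus-strand gene in 68 and inside the plus-strand gene in 60. It was nearer the minus-strand start in 323 members and nearer the plus-strand start in 364, shares of 46.9% (interval 43.2 to 50.7) and 52.9% (49.2 to 56.6). The summit was within 50 bp of the midpoint in 259 members (37.6%) and within 100 bp in 439 (63.8%). The nearer start was a median of 69 bp away and the farther one 212 bp. Gaps of the members ranged from 2 to 726 bp with a median of 282.5 bp. The rule itself favours a summit between the starts. With starts more than 500 bp apart, a summit within 500 bp of both must lie between them. Where genes had several starts, those nearest the summit were used, and with 1 start per gene 74.6% of summits were between.

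**Figure D2:**
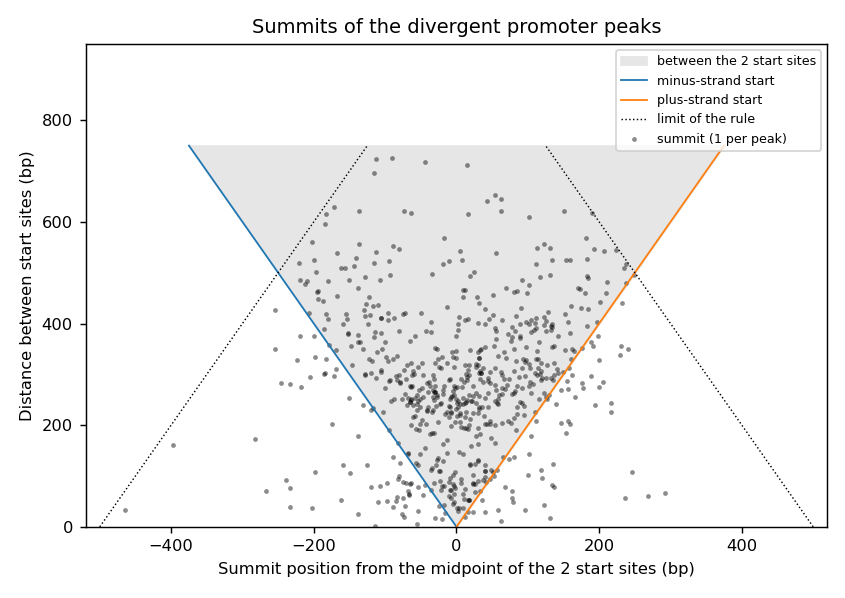
Each point is 1 member, with its summit position in bp from the midpoint of its starts (horizontal axis) and the distance between those starts in bp (vertical axis); solid lines mark the minus-strand and plus-strand starts and dotted lines the limit of the rule. Points gather around the midpoint, and 560 of 688 lie in the shaded space between the starts. For starts more than 500 bp apart the rule allows no other position.

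Where the gap was 201 to 300 bp, the summit lay a median of 133 bp from the minus-strand start and 86.5% of summits were between the starts. Where it was at most 100 bp, 40.6% were. In 610 of the 688 members (88.7%) the deposited summit lay within 10% of the region's width from its centre. The median width was 440 bp, which limits how finely they can be placed between such close starts. Peaks with the summit between the starts had a median signal of 123, those inside the minus-strand gene 126 and those inside the plus-strand gene 105. Signals were low on either side of the 500 bp limit. Just inside it were Spn27A/CG34310 (498 bp from the farther start, signal 103), RN-tre/mam (497 bp, 88.6) and Ncoa6/cype (496 bp, 77.2), and just outside it were Fdh/CG4596 (503 bp, 76.3), Pgant5/CG5828 (504 bp, 88.4) and slv/sut1 (505 bp, 82.7). The widest pair with a member was Lip3/CG34309, with starts 726 bp apart and a signal of 106.

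Most pairs had 1 member peak (612 of 690), while 76 had 2. Of the 76, 16 are mod(mdg4) pairs that share the same 2 peaks, which leaves 60. The pair of the immune adaptor gene imd and Dp1 had 3, with signals of 367, 96.2 and 74.4, and Elp6/Dic1 had 4, with signals of 203, 166, 141 and 78.2. These summits spanned 2148 bp at imd/Dp1 and 2575 bp at Elp6/Dic1, so they lay at alternative starts of the genes rather than at 1 shared promoter. At imd/Dp1 the strongest was higher in replicate 3 (159 in replicate 1 and 219 in replicate 3). In those 60 pairs the summits stood a median of 201.5 bp apart, close to the lowest distance of 199 bp. CG5611/Mtl (474 and 191), CG3437/CG3552 (433 and 101), Bdp1/CG6565 (392 and 87.5) and Hrd3/PTPMT1 (352 and 226) led these pairs by signal. Another summit of the list lay within 250 bp of 107 members (15.6%), against 14.2% of single-gene promoter peaks and 205 of 1706 peaks away from start sites. Neighbouring summits of this kind can share 1 region in a replicate list, and then have the same replicate value.

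Peaks at divergent promoters had a higher median signal than the other groups in the pooled list and in both replicates. The median was 120.6 (quartiles 91.9 and 176), against 101.6 for single-gene promoter peaks and 101.4 for peaks away from start sites. Replicate 1 gave a median of 74.2 for members, 61.5 for single-gene promoter peaks and 59.1 for peaks away from start sites. Replicate 3 gave 58.6 for members, against 49.7 for all other nuclear peaks. The ratio of divergent over single-gene medians was 1.19 in the pooled list, 1.20 with replicate 1 alone and 1.16 with replicate 3 alone, so the direction was the same in both replicates. The groups overlapped widely, since members spanned 70.6 to 741 and single-gene promoter peaks 70.7 to 1056. Members made up 26.3% of the 761 strongest nuclear peaks, 21.7%, 17.2% and 13.7% of the next 3 classes of that size, and 11.6% of the 760 weakest. They were 5 of the top 20 peaks (25%, interval 11.2 to 46.9) and 27 of the top 100 (27%, 19.3 to 36.4), against 18.1% of all nuclear peaks. The interval for the top 20 includes that 18.1%.

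**Figure D3:**
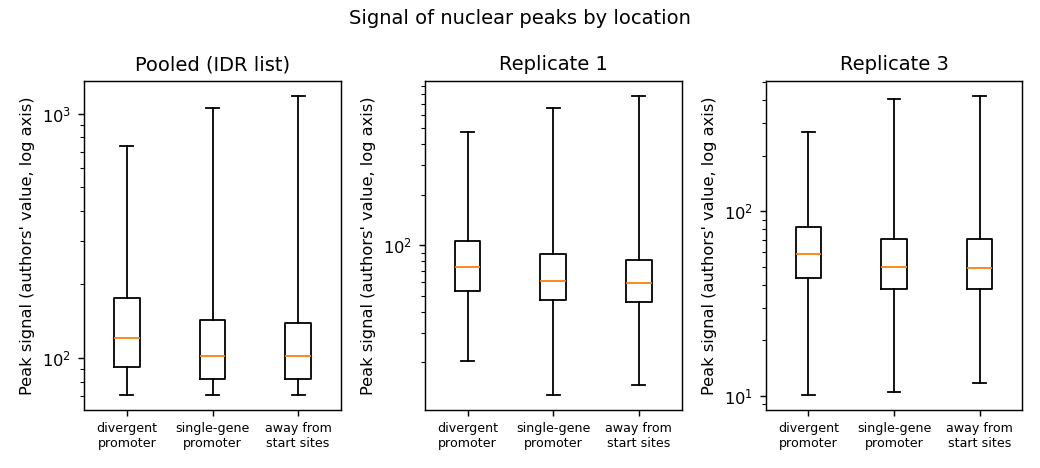
Deposited peak signal (authors' value, log axis) of divergent promoter peaks, single-gene promoter peaks and peaks away from start sites, in panels for the pooled list, replicate 1 and replicate 3; boxes are quartiles with the median line, and whiskers span the lowest to highest peak. The divergent median is the highest in each panel (120.6, against 101.6 and 101.4 in the pooled list), and the ranges overlap.

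A higher share of members was in the top regions of both replicates. Of 688, 543 (78.9%, interval 75.7 to 81.8) overlapped one of the top 3827 regions of each replicate, against 67.1% of single-gene promoter peaks (64.6 to 69.5) and 66.8% of peaks away from start sites. A further 86 members were in the top regions of replicate 1 alone, 50 of replicate 3 alone and 9 of neither. Stronger peaks reach the top regions more easily, and the members had higher signals, so the shares are not independent of the signals. Over the 673 members with an overlapping region in both lists, Spearman's rho between replicate signals was 0.71 and Pearson's r of log2 signals 0.73. These describe peaks in the same pair of libraries, and carry no p-value.

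**Figure D4:**
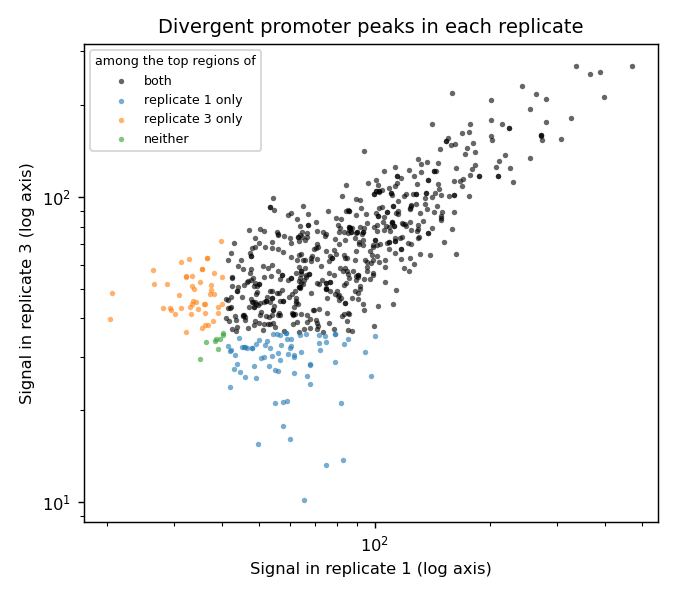
Signal of each member in replicate 3 against replicate 1, both on log axes and each on its own scale, coloured by whether it is among the top 3827 regions of both, 1 or neither replicate. The 673 members with a region in both lists have a Spearman's rho of 0.71, and 543 of all 688 are in the top regions of both.

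The largest differences in rank between replicates were found at members with pooled signals of 70.7 to 152. Towards replicate 3 they were led by hts/CalpA, the pair of an adducin gene and a calpain gene, with 54.4 in replicate 1 and 99.0 in replicate 3. Next in replicates 1 and 3 were UQCR-6.4/CG42239 (26.3 and 57.8), CG1407/CG12129 (53.4 and 92.7, for 2 peaks on 1 replicate region) and CG9921/Dsp1 (20.6 and 48.3). Towards replicate 1 the lead was Jupiter/CG14710, with 82.8 in replicate 1 and 13.7 in replicate 3. Taz/mRpL18 (65.6 and 10.2), CG33203/Doa (74.7 and 13.3), Herp/r2d2 (98.1 and 25.9) and CG11076/ATPsynbeta (81.6 and 21.2) came next. In 15 members a replicate had no overlapping region, 12 in replicate 3 and 3 in replicate 1. A region of both lists was overlapped by 97.8% of members (interval 96.4 to 98.7), the lowest share of the 3 groups. It was 98.7% for single-gene promoter peaks (97.9 to 99.1) and 99.8% for peaks away from start sites (99.4 to 99.9). Fur1/Vps33B had a pooled signal of 343 and 191 in replicate 1, while the nearest summit in replicate 3 lay 116 bp away with a signal of 156. EMC6/Hr96 (249) and Cp190/CG4338 (165) were the next strongest of the 15. For EMC6/Hr96 the nearest summit in replicate 3 lay 2337 bp away.

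The DRE had its highest share at the members among the groups of peaks. A DRE was present within 50 bp of the summit in 63 members (9.16%, interval 7.22 to 11.5), against 3.97% of single-gene promoter peaks (3.07 to 5.13) and 0.234% of peaks away from start sites. It was present in 0.363% of windows of the same 101 bp length 500 bp to each side of the members. At the midpoints of all 2667 divergent pairs the DRE stood in 4.87%, and around all 19252 protein-coding start sites in 4.48%. Of pairs with a DRE at the midpoint 45 of 130 had a member peak (34.6%, interval 27.0 to 43.1), against 25.4% of the other pairs (23.8 to 27.2).

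The BEAF-32 core was present in 234 members (34.0%, interval 30.6 to 37.6), against 22.2% of single-gene promoter peaks, 11.5% of peaks away from start sites, and 23.6% both of midpoints of all pairs and of all start sites. Outside of any DRE it was present in 30.4% of members, 20.2% of single-gene promoter peaks and 11.3% of peaks away from start sites. A match to these letters does not show that DREF or BEAF-32 is bound. DRE-bearing members had a median signal of 112 and the others 123. The strongest DRE-bearing members were CG34213/or (221), CG10948/Wbp2 (212), Arl5/CG13671 (208), SF2/pad (207), tank/CG12194 (194), Rab8/Usp32 (187), Rab30/Caper (180) and RpL34a/Trmt61 (173). The gene for DREF itself shares a member peak with RpL13 (136) and had no DRE in the window, an example chosen after its values were seen. A DRE was found in 10.5% of members with the summit between the starts, 4.41% of those inside the minus-strand gene and 1.67% of those inside the plus-strand gene.

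The AP-1 site had a lower share at members than at the other groups of peaks. It was present in 13 members (1.89%, interval 1.11 to 3.21), against 3.76% of single-gene promoter peaks (2.89 to 4.89) and 5.22% of peaks away from start sites (4.26 to 6.38). Windows 500 bp from the members held it in 0.945%, midpoints of all pairs in 1.01% and all start sites in 0.758%. Members with the site had a median signal of 141 and the others 120. Fur1/Vps33B (343), CG5776/spict (274), Hat1/Rpn5 (232, the weaker of 2 peaks there), CG9427/CG8319 (181), DnaJ-H/Sirt1 (167), osi/tweek (159), CCT1/tHMG1 (141) and AP-2alpha/ebi (136) were the strongest. Fur1 encodes a furin protease, Vps33B a vesicle-tethering protein, Rpn5 a proteasome subunit and CCT1 a chaperonin subunit. At DnaJ-H/Sirt1 the site was centred on the summit, and in the 13 members it lay at most 38 bp away. Both an AP-1 site and a DRE were found in 2 members, Rab6/Phae1 (100.2) and Ttd14/slim (88.2), and in 2 of the 1409 single-gene promoter peaks. A CRE (TGACGTCA), the site of CREB and ATF proteins, was present in 4 members, Reps/l(2)gd1 (375), Fur1/Vps33B (343), Oseg6/Rep (240) and AP-2alpha/ebi (136). That is 0.581% of members, against 0.710% of single-gene promoter peaks, 0.117% of peaks away from start sites and 0.119% of all start sites.

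Other motifs had higher shares at members in some cases and lower ones in others. The TATA box (TATAAA) was present in 18.9% of members, 12.5% of single-gene promoter peaks and 16.5% of peaks away from start sites, and the core promoter E box (CAGCTG) in 9.01%, 5.82% and 3.81% of them. At the midpoints of all divergent pairs the TATA box stood in 22.7%, a higher share than at members. The E box stood in 6.75% of these midpoints and in 8.77% of windows around all start sites. The GAGA factor word (GAGAGAG) was present in 4 members (0.581%, interval 0.226 to 1.49), against 62 single-gene promoter peaks (4.40%, 3.45 to 5.60), and in 1.96% of windows 500 bp from the members. The Motif 1 core (GGTCACAC), a promoter element bound by M1BP, stood in 2.03% of members, 1.63% of single-gene promoter peaks and 4.68% of all start sites. The GATA word (AGATAA) was present in 6.10%, 5.89% and 7.74% of the 3 groups, and the Myc-type E box (CACGTG) in 0.727%, 0.923% and 0.821%. All motifs were searched on both strands. Median GC content of the window was 34.7% in members, 40.6% in single-gene promoter peaks and 36.6% in peaks away from start sites. Its part in the motif shares was not tested. Among all words of 7 bases, the widest differences were for AAATAAA (19.5% of members, 11.3% of single-gene promoter peaks) and ATCGATA, which lies within the DRE (16.4% and 8.66%), and the other way for CACACAC (1.31% and 6.17%). These words were picked after their values were seen.

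**Figure D5:**
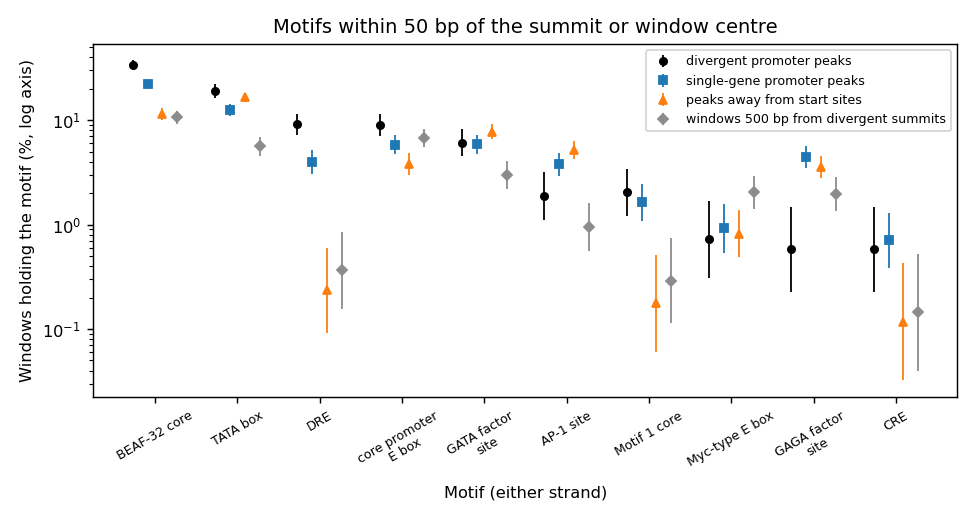
Percent of 101 bp windows with each motif, for divergent promoter peaks, single-gene promoter peaks, peaks away from start sites and windows 500 bp from the member summits, drawn on a log axis with Wilson 95% intervals as bars. Divergent promoter peaks lead for the DRE (9.16%) and the BEAF-32 core (34.0%) and are lowest of the peak groups for the AP-1 site (1.89%).

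Ribosomal protein genes had member peaks at a higher share than all genes in pairs. Of the 58 mitochondrial ribosomal protein genes in divergent pairs, 27 had a member peak (46.6%, interval 34.3 to 59.2), set beside the 25.6% of all genes in pairs. They were led by mRpS23, mRpS10, mRpL23 and mRpL53, which shares with the microRNA effector gene AGO1 a peak of 432 (272 in replicate 1 and 158 in replicate 3). Of 53 cytoplasmic ribosomal protein genes in pairs, 22 had one (41.5%, 29.3 to 54.9). Among the strongest were RpL34b with CG8132 (303), RpL32 with CG7943 (247) and RpS20 with CG17271 (227). Each list's median member signal, 140.5 for the mitochondrial and 136 for the cytoplasmic one, was above the 120.6 of all members. A summit within 500 bp of any start, in a pair or not, was found at 54 of 86 cytoplasmic ribosomal protein genes (62.8%). It was found at 30 of 73 mitochondrial ones (41.1%) and at 17.9% of all protein-coding genes. These counts include the genes with a member peak. For the cytoplasmic list they are 22 of the 54, so its summits are not confined to divergent promoters. For the mitochondrial list they are 27 of the 30, so whether its higher share is particular to divergent promoters cannot be told from this count. Translation initiation and elongation factors (6 of 26, led by eIF3h with senju at 226) and aminoacyl-tRNA synthetases (5 of 23, led by GluProRS with AP-1sigma at 213) stood near the background.

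Rab GTPase genes, which direct vesicle traffic, had member peaks at 11 of 16 in pairs (68.8%, interval 44.4 to 85.8), against 25.6% of all genes in pairs. A summit within 500 bp of any start, in a pair or not, was found at 15 of all 25 Rab genes (60.0%). Of all protein-coding genes 17.9% had such a summit. The 15 include the 11 with a member peak, so whether the high Rab share is particular to divergent promoters cannot be told from this count. Rab8 with Usp32 had 187 (107 in replicate 1 and 80.3 in replicate 3), Rab30 with Caper 180 (123 in replicate 1 and 57.1 in replicate 3), Rab14 with l(2)34Fd 116 and Rab39 with Pdp 111. Their median signal of 100.2 was below that of all members. The 25.6% lies within the intervals of the next 4 lists. ESCRT genes had 3 of 9, CHMP2B, Vps60 with anchor (255) and shrb with Prp38 (155), and autophagy genes had 6 of 16, led by Atg18a with ERR (209), Atg12 with CG5645 (164), Atg7 with Sec6 (149) and Atg17 with Xe7 (127). Proteasome genes had 7 of 26, led by Rpn5 (325), Rpn6 with ave (286) and Rpn3 with l(2)37Bb (215). The shares of proteasome genes (26.9%) and of genes of the respiratory chain and ATP synthase (26.7%) were at that background. The respiratory list had 12 of 45, led by ND-ASHI with Fum1 (223) and ND-24 with corolla (198).

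The 25.6% of all genes in pairs also lies within the interval of each of the next 7 lists. Mediator subunits had 5 of 21, led by MED30 with Rev1 (356) and MED27 with elm (235), TFIID subunits 2 of 12, and exosome and RNA polymerase subunits 8 of 26, led by Polr2H with CG11247 (224) and Polr2B with 140up (191). Cell cycle regulators had 6 of 17, led by aurA with CG3281 (227) and Mcm5 with Art1 (161). Of 8 heat shock genes 2 had one (Hsc70-5 at 199 and Hsp83 at 74.2), of 9 Hippo pathway genes 2 (yki at 97.4 and Rassf at 86.2) and of 12 immune signalling genes 2 (imd and IKKbeta at 96.1). Of 16 DNA repair genes 0 had one, with an upper bound of 19.4%, and of 87 histone genes, most of them cluster copies, 2 had one. Of 7 glutathione transferase genes 0 had one, with an upper bound of 35.4%. No pair with a peak had both of its genes on the same list. Most divergent pairs of this kind were the 42 pairs of 2 histone genes, which had no summit in any list. The others were Taf10b/Taf10, Hsp67Bc/Hsp22, GstE10/GstE1 (starts 867 bp apart) and GstE10/GstE2 (967 bp). With so few other pairs, this is not a result about the members.

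The JNK pathway, which activates Jra, has 10 genes in divergent pairs, and 4 had a member peak. Mkk4, the gene for a kinase that phosphorylates JNK, shared with SLIRP2 a peak of 329 (208 in replicate 1 and 125 in replicate 3). POSH, a scaffold gene, shared with Ns2 a peak of 294 (188 in replicate 1 and 117 in replicate 3), and Traf6 shared with GIIIspla2 a peak of 125 (85.0 in replicate 1 and 41.7 in replicate 3). At bsk, which encodes JNK itself, the peak shared with CG31717 had 87.6 (33.3 in replicate 1 and 51.2 in replicate 3) and was among the top regions of replicate 3 alone. Pairs without a member peak included Src64B/HDAC1, Tab2/mip40, grnd/CG10283, hep/lic and msn/RpL8. Starts were 711 bp apart for hep, 904 bp for grnd and 916 bp for msn, and no pair more than 800 bp apart had a member peak. Lack of a member peak does not mean lack of any peak. Of all 29 JNK pathway genes listed, 17 had a summit within 500 bp of a start (58.6%), against 17.9% of all protein-coding genes. The 4 of 10 is a small count, with an interval of 16.8 to 68.7%, which includes the 25.6% of all genes in pairs.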

How the data were processed

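Jra-GFP ChIP-seq peak lists of 2 replicates were used, on genome build dm6 per the labels. The authors deposited a signal value for each region, a −log10 q-value and a summit offset, and the signal in each list has its own scale. The −log10 q-values the authors deposited were not used. Per the deposited text files, the reproducible list (irreproducible discovery rate, IDR) was made from the replicate lists (30000 and 29999 regions) and the pooled list (29999 regions). Not given in the sources used here are aligner, peak caller and IDR threshold. All 3827 IDR peaks were the strongest 3827 pooled regions by signal, and the 24 mitochondrial ones were set aside. Control libraries and the dm3 lists were not analysed here. Read depth is unknown.

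Start sites came from Ensembl release 115. No region of the 4 dm6 lists ended beyond its chromosome in the RefSeq Release 6 sequence. In each replicate a peak took the strongest signal among regions that overlapped it by at least 1 bp. Motifs were exact matches on either strand, at most 50 bp from a summit (101 bp windows). Analyses used Python 3.11.15, NumPy 2.4.6 and SciPy 1.17.1, and the peak rule and motif search were tested on planted positions. Wilson 95% intervals describe shares, and no test was run.

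The members and lists were chosen with earlier results of these data known. The 20 gene lists, for which 14 symbols had no match, are from textbook knowledge. The patterns of the Rab, cytoplasmic ribosomal protein and exosome lists were tightened after values were seen, to drop Rab3GAP1 and other Rab-interacting genes, RpLP0-like and Rrp1. Genes are named for the 12 strongest and 3 weakest members, those next to each threshold, up to 5 pairs with several peaks, up to 4 genes per list, up to 8 members with an AP-1 site or DRE, the 5 largest rank differences each way, and JNK pathway genes in a pair. Some genes that this rule names are not reported here. The alternatives were other distances, gaps, motif windows, signal limits and starts, and each replicate left out.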

Additional observations from a re-analysis of the deposited data

How the results depend on the processing

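Of 80 alternative values, 56 stayed within the limit set for their kind and 24 moved. Only the ratio of divergent over single-gene medians has a direction, and its lowest alternative value was 1.08. The differences in motif shares between members and the other groups of peaks were not recomputed under the alternatives. The limit was 1.5 times for the number of members, the 95% interval of the reported value for shares and the median, and 1 SD between the replicates for the ratio. A count inside its limit can still differ, as with 867 members at 1000 bp. Keeping peaks at or above the median signal left 431 members, 16.9% of pairs with a peak, a median signal of 159, 95.6% in the top regions of both replicates and a ratio of divergent over single-gene medians of 1.08. A limit of 250 bp gave 411 members, 17.2% of pairs, a median of 132 and a ratio of 1.30. A limit of 1000 bp gave 31.9% of pairs, 74.9% of summits between the starts and a ratio of 1.15. Starts at most 300 bp apart gave 429 members, 32.0% of pairs, a median of 127, 66.0% between and a ratio of 1.24, and a limit of 2000 bp on the gap gave 19.7% of pairs, as it only enlarges the number of pairs. With 1 start per gene 74.6% of summits were between. Windows of 25 and 100 bp around the summit held a DRE in 4.36% and 16.0% of members, as shorter and longer windows do. Keeping 1 peak within 250 bp, an alternative chosen after seeing the data, gave a ratio of 1.22. Leaving out the mod(mdg4) locus, also chosen after seeing the data, gave 685 members and 24.8% of pairs. The cause of the other changes was not tested.

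Without replicate 1 or 3 in turn, members numbered 686 to 733, pairs with a peak 25.8 to 27.5%, summits between the starts 75.4 to 78.9%, the DRE 6.41 to 8.19% and the ratio 1.16 to 1.20. The AP-1 share ran from 1.16 to 2.47% over all its alternatives. The median signal has no such value, because each list has its own scale, and the share in both replicates needs both. No paired analysis was possible because the study has 1 group. Read depth is unknown, so sites missing from the lists cannot be called unbound.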
